A study of Mus musculus with 41 samples.

Results

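Sall1 and Sall3 encode spalt-like zinc finger transcription factors, and their transcripts were followed through 21 poly(A) RNA sequencing libraries of mouse brain cells. They are 2 of the 24537 gene symbols in the deposited count table and were taken by symbol. All mice were C57Bl6, and the sources used here give no age. Microglia, brain-resident macrophages, were sorted as live single CD11b+CD45Low cells and either profiled directly (ex vivo, 5 libraries) or plated in serum-containing medium with IL34, a ligand of the CSF1 receptor, added daily. Culture lasted 6 h (2 libraries), 24 h (3 libraries, of which replicate 2 is labelled 22 h) or 7 d (5 libraries). In a further 7 d group (2 libraries) the ligands were IL34 and TGFβ, the latter at a dose the labels do not give. Unsorted brain lysate (4 libraries) served as the tissue reference. Chromatin was profiled ex vivo and at 7 d by ATAC-seq, which maps open chromatin, and by ChIP-seq for H3K27ac, a mark of active promoters and enhancers. ATAC replicate 2 of the 7 d group is labelled 8 d, and the 7 d peak list rests on the pooled group. ChIP-seq for H3K4me2 and for PU.1, the lineage-determining factor of macrophages, was done ex vivo. The 6 deposited peak lists hold 143 of their 382955 intervals within 100 kb of the gene bodies, 72 around Sall1 and 71 around Sall3.

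Spalt-like (SALL) proteins bind DNA through pairs of C2H2 zinc fingers and repress transcription through a short N-terminal motif that recruits the NuRD complex, which couples histone deacetylases to a chromatin remodelling helicase. In mammals the family has the members SALL1 to SALL4, with roles in kidney, limb, neural and germ cell development. In the adult brain Sall1 is a defining transcription factor of microglia that other macrophages lack, and its expression there depends on TGFβ signalling. Sall3 is its paralogue and is also expressed in microglia.

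Sall1 has 3 annotated starts on the minus strand of GRCm38.p6 (mm10), at chr8 positions 89044162, 89043512 and 89042862, so that the later starts lie 650 and 1300 bp inside the gene. The 3 windows of 250 bases before to 50 after each start (RefSeq) are shown because the deposited peaks separate them: capitals mark the bases inside an ex vivo ATAC peak.
Sall1 start 1, chr8:89044113-89044412: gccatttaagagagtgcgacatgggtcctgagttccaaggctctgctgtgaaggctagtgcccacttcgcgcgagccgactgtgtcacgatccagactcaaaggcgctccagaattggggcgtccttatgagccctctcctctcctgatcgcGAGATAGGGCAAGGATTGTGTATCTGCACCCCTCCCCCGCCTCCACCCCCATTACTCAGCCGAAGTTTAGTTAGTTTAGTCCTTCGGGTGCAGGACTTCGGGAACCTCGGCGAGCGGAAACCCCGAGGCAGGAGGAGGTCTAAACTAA
Sall1 start 2, chr8:89043463-89043762: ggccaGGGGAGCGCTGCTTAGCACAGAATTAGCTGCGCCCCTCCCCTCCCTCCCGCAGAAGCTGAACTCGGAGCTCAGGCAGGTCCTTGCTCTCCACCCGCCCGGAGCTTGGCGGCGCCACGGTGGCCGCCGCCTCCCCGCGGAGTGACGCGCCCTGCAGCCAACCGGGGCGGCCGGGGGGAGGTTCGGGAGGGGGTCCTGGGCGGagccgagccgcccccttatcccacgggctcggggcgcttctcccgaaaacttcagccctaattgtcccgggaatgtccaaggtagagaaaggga
Sall1 start 3, chr8:89042813-89043112: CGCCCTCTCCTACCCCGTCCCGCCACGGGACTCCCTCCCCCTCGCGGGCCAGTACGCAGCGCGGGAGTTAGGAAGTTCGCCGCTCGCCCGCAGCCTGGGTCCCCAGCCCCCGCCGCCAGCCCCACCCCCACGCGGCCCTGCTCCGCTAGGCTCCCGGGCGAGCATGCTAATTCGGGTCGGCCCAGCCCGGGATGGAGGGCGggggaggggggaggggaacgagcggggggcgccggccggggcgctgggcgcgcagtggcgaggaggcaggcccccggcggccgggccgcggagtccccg
Of the 300 bases of each window, 148, 201 and 201 lay in an ex vivo ATAC peak. The ATAC list of 7 d cultures covered 0, 201 and 201 of them, so the peak at the first start was listed ex vivo and not at 7 d. H3K27ac intervals covered all 300 bases of each window in both conditions, and a PU.1 interval reached only the third window, by 12 bases. The windows held 57.3%, 70% and 79.7% G and C with 18, 27 and 39 CpG dinucleotides, against medians of 52.7% and 7 over 32851 promoter windows of the same length. A set of 6 short motifs was searched on both strands, and a match is only a description of letters: GTCTG, bound by SMAD proteins, matched once in the first window, beginning 158 bases before the start, as it did at least once in 49.6% of all promoter windows. No match in any of these windows was found for GAGGAAG (PU.1, in 13.6% of all windows), TGANTCA (AP-1, 7.81%), TGTGGT (RUNX, 16.8%), GAAACT (IRF, 15.8%) or the MEF2 motif (3.69%).

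Library sizes ran from 11.6 to 28.8 M (mega) counts, and the members were covered by 355 to 44792 (Sall1) and 126 to 6880 (Sall3) counts per library. Whether the libraries of a group are separate animals is not in the labels, and p-values then reflect only the spread among these libraries, which may be technical. At 7 d replicates 2 and 3 stood apart from the other 3: over genes, log2 CPM correlated at 0.998 between them, at 0.981 to 0.992 with the others and at 0.994 to 0.997 among the others. The microglial markers P2ry12, Tmem119, Cx3cr1, Siglech and Csf1r summed to 29228 to 32947 CPM (counts scaled to library size) ex vivo, 2496 to 7170 CPM in culture and 177 to 236 CPM in lysate. An lncRNA, Gm3134, overlaps the 5′ end of Sall1, and no source used here says whether the counting used strand, so its reads may be among those of Sall1.

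Both members were among the genes that set sorted microglia apart from the brain as a whole. In TPM (transcript abundance scaled for gene length and library size, so that genes can be compared), Sall1 stood at 547, 755, 670, 786 and 792 in the ex vivo libraries and at 11.9, 7.15, 10.45 and 9.55 in lysate. Sall3 stood at 83.6, 79.9, 78.5, 129.9 and 97.4 ex vivo against 2.66, 2.13, 2.83 and 2.86 in lysate. The groups did not overlap for either gene, and Sall3 was highest in ex vivo replicate 4. The share of all genes without such overlap is not given, here or for the comparisons below. By TPM Sall1 ranked between 63 and 121 among the genes of an ex vivo library and between 8480 and 10156 in lysate, and Sall3 between 775 and 1397 and between 12458 and 13059. In CPM on TMM-scaled library sizes, Sall1 was 2241 ± 286 (SD, n = 5) ex vivo and 25.7 ± 4.81 (n = 4) in lysate, 87.1-fold higher (log2 6.44, SE 0.21, edgeR adjusted p = 1.03e-10). Sall3 was 389 ± 84.3 against 9.09 ± 1.22 CPM, 42.9-fold higher (log2 5.42, SE 0.21, edgeR adjusted p = 3.33e-10). Of the 15335 genes tested, 39.1% were called higher ex vivo and 43.5% lower, a call being an adjusted p under 0.05. In a bulk lysate fewer cells of a type and less RNA per cell cannot be told apart. The astrocyte markers of the fixed list (6 of 6 in the table, among them Gfap and Aqp4) summed to 4088 to 5919 CPM in lysate, where Sall1 stood at 19.1 to 30.6 CPM. The sum uses total counts and the value of Sall1 TMM-scaled sizes, so the 2 are not on 1 scale. Which cells of the lysate carried Sall1 was not tested.

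**Figure D1:**
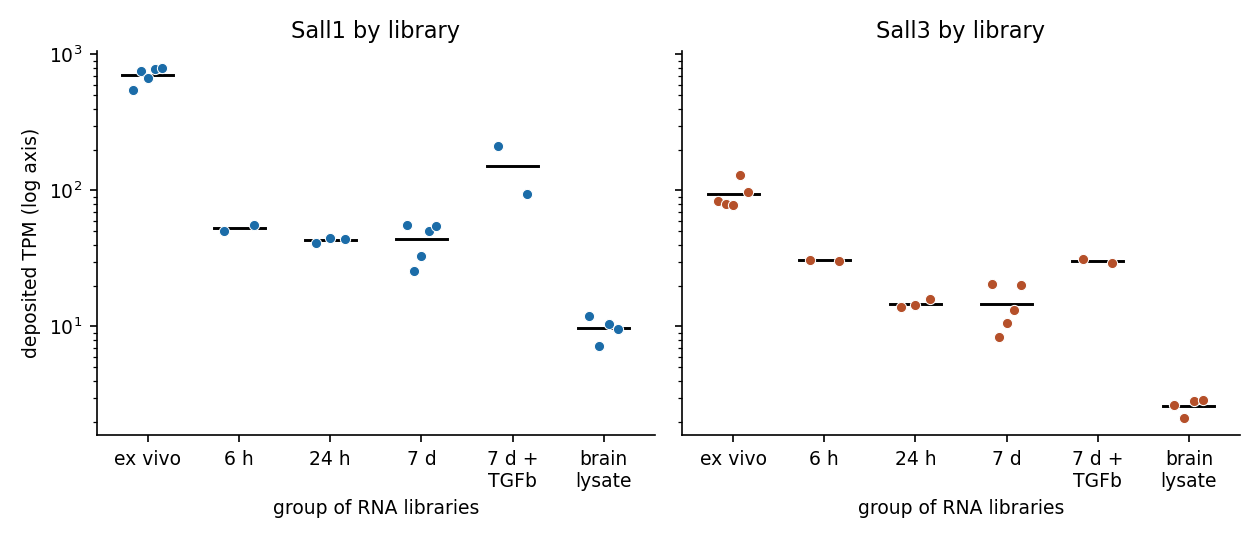
Deposited TPM of Sall1 (left) and Sall3 (right) on a log axis in each of the 21 RNA libraries by group; points are libraries and bars are group means. The ex vivo libraries are highest for both genes, the 2 libraries with TGFβ lie above all 7 d libraries without it, and lysate is lowest.

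The other members of the family behaved otherwise in this comparison. Sall2, a factor of neural development, was at 63.1 ± 7.77 CPM ex vivo and 61.1 ± 7.01 in lysate, a log2 difference of 0.05 that was not called (edgeR adjusted p = 0.748) and became -0.24 with DESeq2 or with RLE factors and -0.27 with total counts as library sizes. Sall4, a factor of germ and pluripotent cells, had 3 counts in 1 ex vivo library, 0 in the other microglial libraries and 20 counts over the lysate libraries. It did not pass the filter on low counts in the main model, and with no filter, or with DESeq2, it was called lower ex vivo than in lysate.

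Within 6 h of culture Sall1 had fallen most of the way and Sall3 part of the way. Sall1 CPM in the ex vivo libraries was 1582, 1991, 1807, 2073 and 2174, and in the 6 h libraries 180.2 and 197. Sall3 CPM was 317, 276, 278, 449 and 350.5 ex vivo and 145 and 139 at 6 h. Neither gene overlapped between the groups. Sall1 fell 10.2-fold (log2 -3.35, SE 0.36, edgeR adjusted p = 4.02e-07) and Sall3 fell 2.35-fold (log2 -1.23, SE 0.30, edgeR adjusted p = 0.00154). At 6 h 31.2% of the 13840 genes tested were called higher and 36.8% lower, a share of higher calls of 45.8% that became 32.7% with total counts, under which the median of all genes moved by a further -0.40 on the log2 scale. With total counts Sall1 changed by -3.75 and Sall3 by -1.63 (log2). The astrocyte markers summed to 169.6 to 366 CPM ex vivo and 1.62 to 19.8 CPM over all cultured libraries, and their part in these differences was not tested.

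At 24 h Sall3 had fallen further. Sall1 CPM was 113, 126 and 122, and Sall3 CPM 50.4, 53.7 and 57.7. All 3 libraries lay below both 6 h libraries for each gene. Against ex vivo cells Sall1 was 16.01-fold lower (log2 -4.00, SE 0.32, edgeR adjusted p = 1.06e-08) and Sall3 6.19-fold lower (log2 -2.63, SE 0.27, edgeR adjusted p = 3.08e-07), where 29.6% of genes were called higher and 33.1% lower. Between 6 h and 24 h Sall3 fell 2.64-fold (log2 -1.40, SE 0.30, edgeR adjusted p = 0.00136), whereas the difference of Sall1, -0.65 (SE 0.32), was not called (edgeR adjusted p = 0.118). In an edgeR fit of only these 2 groups Sall1 differed by -0.60 and was called (adjusted p = 0.00051), while with total counts it differed by -0.21 and with deposited TPM by -0.30, neither called. In this comparison 22.0% of genes were called higher and 19.8% lower, 52.7% of the calls being higher, or 79.1% with total counts.

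At 7 d both genes remained low and varied more between libraries. Sall1 CPM was 175, 80.5, 108, 157 and 175, and Sall3 CPM 84.9, 34.5, 45.3, 54.3 and 84.2. Replicates 2 and 3, which stood apart over all genes, were the lowest 2 for both members, and replicates 1 and 5 the highest. No 7 d library reached the ex vivo range. Sall1 was 13.9-fold lower than ex vivo (log2 -3.79, SE 0.25, edgeR adjusted p = 1.003e-09) and Sall3 5.51-fold lower (log2 -2.46, SE 0.22, edgeR adjusted p = 4.69e-08), with 34.8% of genes called higher and 35.7% lower. Without replicates 2 and 3 the log2 differences were -3.51 and -2.17. From 24 h to 7 d neither changed by the test (Sall1 0.21, SE 0.26, edgeR adjusted p = 0.533; Sall3 0.17, SE 0.25, edgeR adjusted p = 0.591), the 24 h values lying inside the 7 d range, while 27.2% of genes were called higher and 21.6% lower. Sall2 fell from 54.2 ± 6.62 to 5.81 ± 0.0867 CPM at 6 h and stood at 5.87 ± 0.956 at 24 h and 12.3 ± 3.71 at 7 d. Its rise from 24 h to 7 d was called (2.10-fold, log2 1.07, edgeR adjusted p = 0.000723).

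With TGFβ in the 7 d culture both genes were higher than without it. Sall1 CPM was 762 and 317 with TGFβ, against 80.5 to 175 without. Sall3 CPM was 149 and 129, against 34.5 to 84.9. Both libraries with TGFβ exceeded every 7 d library without it for each gene, but for Sall1 they differed 2.41-fold from each other and for Sall3 1.15-fold. Sall1 rose 3.88-fold (log2 1.96, SE 0.28, edgeR adjusted p = 9.37e-05). Leaving out TGFβ replicate 1 or 2 gave 1.19 or 2.47, both still called (adjusted p = 0.0171 and 1.98e-05), with the lone library assumed to vary like the other groups. Sall3 rose 2.30-fold (log2 1.20, SE 0.27, edgeR adjusted p = 0.00434), and its call was lost without TGFβ replicate 1 (1.10, adjusted p = 0.0622) and in a fit of only these 2 groups (1.22, adjusted p = 0.0527). Here 9.57% of genes were called higher and 6.52% lower, 59.5% of the calls being higher, or 47.2% with total counts. Sall2 rose 2.36-fold (log2 1.24, edgeR adjusted p = 0.000812), to 29.1 ± 0.502 CPM. The oligodendrocyte precursor markers Pdgfra and Cspg4, of which 1 had no counts in each group, summed to 124 to 350 CPM with TGFβ. Without it they summed to 0.413 to 19.4 CPM. Border macrophage markers (4 genes, among them Mrc1) summed to 6.36 to 6.38 CPM with TGFβ and 53.6 to 116 CPM without. The part of these in the differences was not tested, and not all types of the fixed list are described.

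The level with TGFβ stayed below that of ex vivo cells. Sall1 was 3.57-fold lower (log2 -1.84, SE 0.33, edgeR adjusted p = 2.04e-04), or -2.60 and -1.32 without TGFβ replicate 1 and replicate 2, and Sall3 was 2.40-fold lower (log2 -1.26, SE 0.30, edgeR adjusted p = 0.00195). Neither TGFβ library reached the ex vivo range of either gene. In this comparison 28.3% of genes were called higher and 27.5% lower. The comparisons with ex vivo cells share those 5 libraries, and so their values are not independent of each other.

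**Figure D2:**
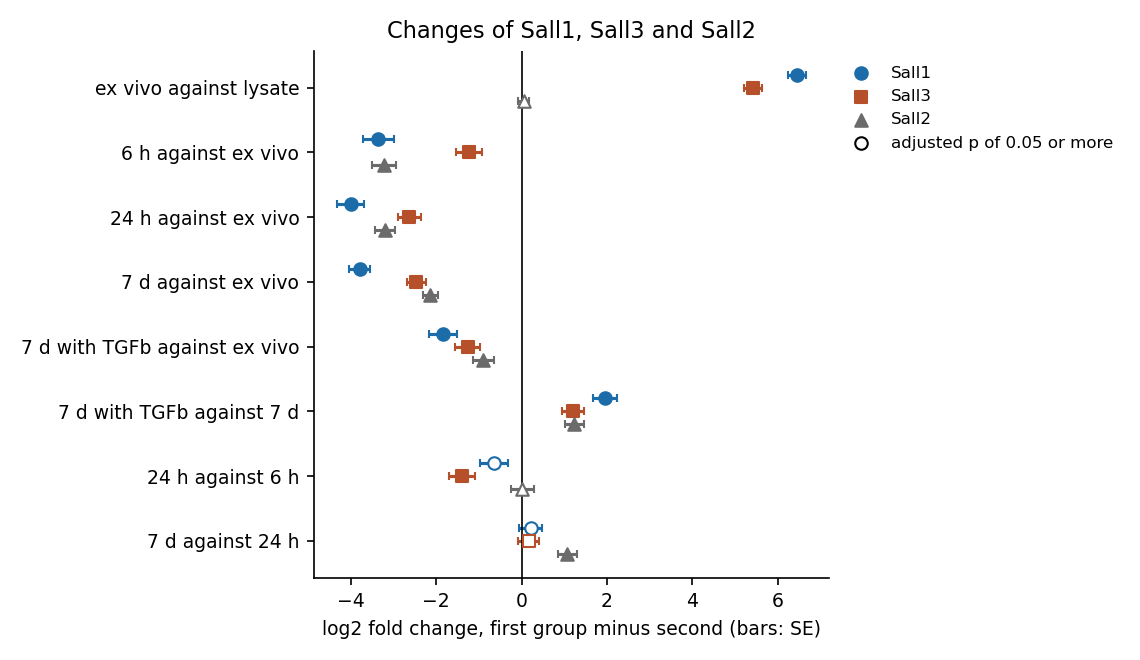
Log2 fold changes (first group minus second) of Sall1, Sall3 and Sall2 in the 8 comparisons, from edgeR, with standard errors as bars; open symbols mark an adjusted p of 0.05 or more. Sall1 lies farther from 0 than Sall3 in the comparisons with ex vivo cells and lysate, and only in the step from 6 h to 24 h does Sall3 move more.

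On the TPM scale the groups ordered as ex vivo (710 ± 103), 7 d with TGFβ (152 ± 83.0), 6 h (53.1 ± 3.89), 7 d (43.8 ± 13.6), 24 h (43.0 ± 1.91) and lysate (9.76 ± 1.99) for Sall1. The ranges of 6 h and 7 d, and of 7 d and 24 h, overlapped. For Sall3 the order was ex vivo (93.9 ± 21.5), 6 h (30.6 ± 0.585), 7 d with TGFβ (30.4 ± 1.67), 24 h (14.7 ± 0.977), 7 d (14.6 ± 5.50) and lysate (2.62 ± 0.339). The 6 h and TGFβ groups overlapped, as did 24 h and 7 d, so that 6 h cells lay at the level of 7 d cells with TGFβ for Sall3 but below it for Sall1.

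The ratio of the paralogues therefore differed between groups. Sall1 exceeded Sall3 in TPM in all 21 libraries. The ratio was 6.55, 9.45, 8.53, 6.05 and 8.13 ex vivo, 1.62 and 1.85 at 6 h, 2.94, 3.09 and 2.76 at 24 h, and 2.71, 3.06, 3.12, 3.78 and 2.72 at 7 d. With TGFβ it was 6.69 and 3.21, and in lysate 4.47, 3.35, 3.69 and 3.33. Every ex vivo library lay above every cultured library without TGFβ and every lysate library, and 1 of the TGFβ libraries lay within the ex vivo range. An exact 2-sided permutation test of the log2 count ratio was run for the 8 comparisons. The ratio changed by -2.14 at 6 h (p = 0.0952, the smallest this design allows), -1.38 at 24 h (p = 0.0357, likewise the smallest) and -1.32 at 7 d (p = 0.00794, likewise), and was 1.05 higher ex vivo than in lysate (p = 0.0159, likewise), by exact permutation. Adjusted over the 8 comparisons these exact p-values became 0.19, 0.0952, 0.0635 and 0.0635. No adjusted value could pass 0.05, even with every comparison at the smallest p-value its group sizes allow. The adjusted values therefore cannot decide whether the ratio changed. The step from 6 h to 24 h (0.75), that from 24 h to 7 d (0.06) and the differences of the TGFβ group from 7 d (0.60) and from ex vivo cells (-0.72) had exact permutation p-values of 0.2, 0.75, 0.19 and 0.286. The TGFβ differences moved with 1 library: without TGFβ replicate 1 they were 0.0719 and -1.25, and without replicate 2 they were 1.13 and -0.191.

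**Figure D3:**
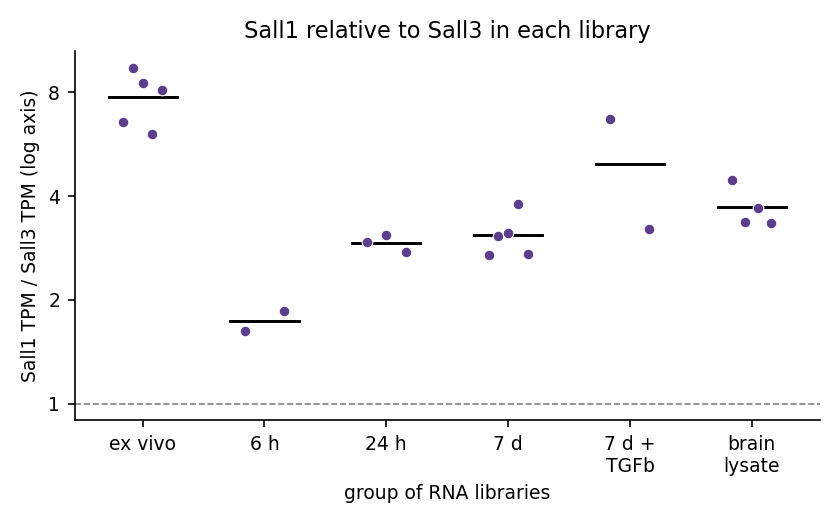
Ratio of Sall1 TPM to Sall3 TPM in each RNA library by group, on a log axis; points are libraries, bars are group means and the dashed line is equality. The ex vivo libraries lie between 6.05 and 9.45, the 6 h libraries at 1.62 and 1.85, and the 2 TGFβ libraries apart from each other at 6.69 and 3.21.

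Across the 17 microglial libraries the log2 CPM of Sall1 and Sall3 correlated at Pearson's r = 0.943 and Spearman's rho = 0.971, and at r = 0.808 over the 12 cultured libraries. These are descriptions: all points share the same 5 groups, and the ex vivo libraries lie at 1 end. Of 11761 genes averaging 1 CPM or more, Sall3 stood at rank 123 in the order of likeness to Sall1, and Sall1 at rank 40 in the order of likeness to Sall3, by r. By rho they were at rank 3 and rank 2. The 10 genes most like Sall1 by r (0.982 to 0.972, leaving out unnamed gene models) were Git2, Bcl9l, Tmem8c, Abl1, Lrrc3, Lpcat2, Col27a1, Whrn, Kcnk6 and Plcl2. The choice depended on the measure: by rho these genes stood between rank 1 (Kcnk6) and rank 398 (Lrrc3). Git2, a GTPase-activating protein for ARF proteins, was at 482 ± 50.9 CPM ex vivo. In culture it was at 150.2 ± 1.47 (6 h), 132 ± 2.30 (24 h), 137 ± 16.95 (7 d) and 199 ± 23.8 CPM (7 d with TGFβ). The genes most unlike Sall1 were Mina, Lpxn, Lpl, Rrs1 and Kars (r from -0.979 to -0.973). Lpl, which encodes lipoprotein lipase, was at 31.2 ± 14.7 CPM ex vivo, 10217 ± 579 at 7 d and 872 ± 115 with TGFβ.

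The 10 genes most like Sall3 (r from 0.979 to 0.961) were Fmnl3, Sufu, Tgfa, Sipa1, Il10ra, Nfatc1, Acvr1, Ldlrad4, Unk and Liph, and none of them was among the 10 for Sall1. Small margins of r set these lists: 369 genes (3.14%) correlated with Sall1 above 0.9 and 185 (1.57%) with Sall3. The lack of shared genes therefore does not show that the members have different partners. Fmnl3, a formin that organizes actin, was at 605 ± 95.2 CPM ex vivo. In culture it was at 454 ± 19.8 (6 h), 219.6 ± 1.98 (24 h), 199 ± 42.6 (7 d) and 403 ± 23.6 CPM (7 d with TGFβ). Il10ra, the ligand-binding chain of the IL-10 receptor, fell from 1013 ± 205 ex vivo through 438 ± 76.9 at 6 h to 103 ± 17.2 CPM at 24 h. The least alike were Med10, Kars, Drg1, Brms1 and Rbm45 (r from -0.973 to -0.956), of which Kars, a lysyl-tRNA synthetase, was also among the 5 least like Sall1.

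**Figure D4:**
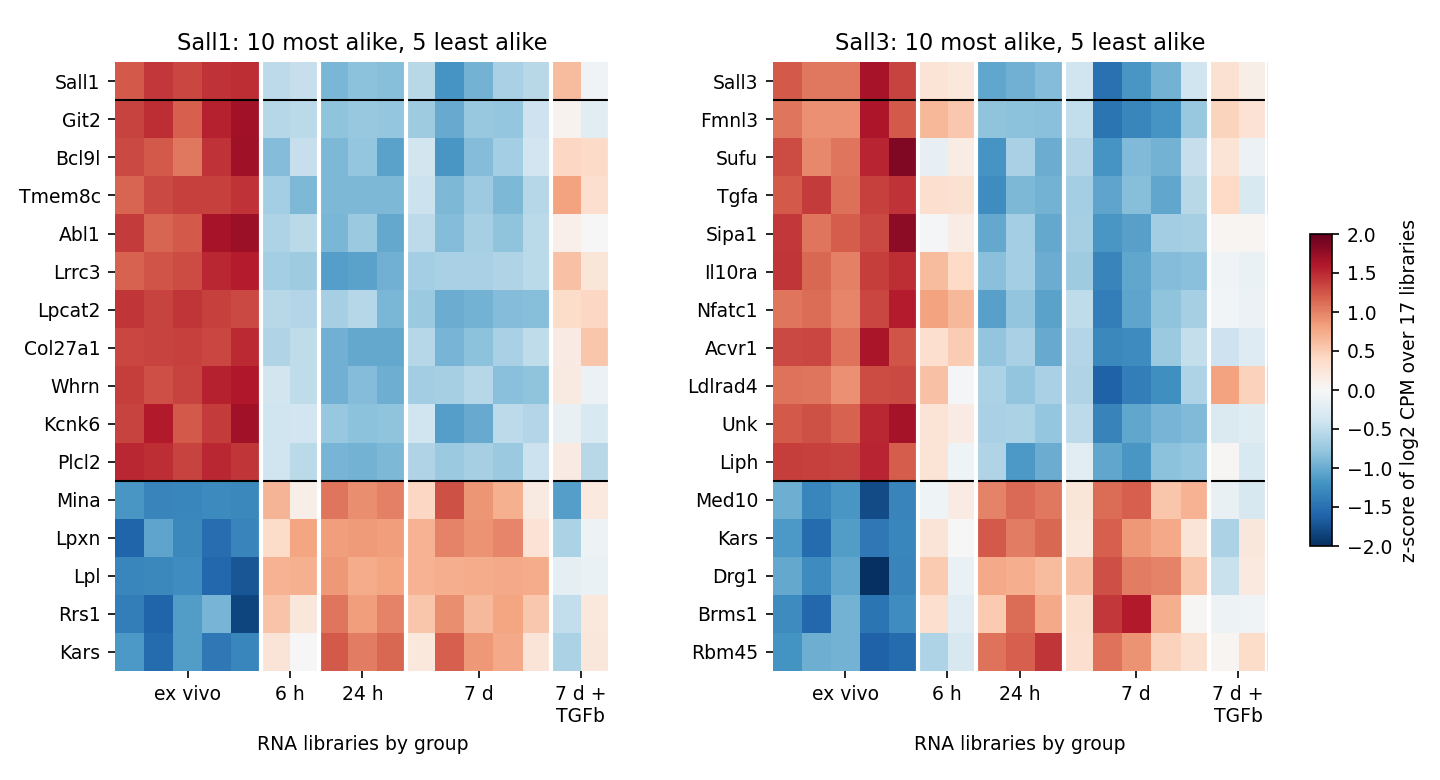
Heat maps of log2 CPM, as z-scores over the 17 microglial libraries (columns, by group), for Sall1 (left) and Sall3 (right) in the top row, the 10 most alike genes below and the 5 least alike at the bottom. The genes like Sall1 are low at 6 h already, while those like Sall3 are intermediate at 6 h and low at 24 h and 7 d. They were picked by correlation over these same libraries, so this likeness to each member follows from the choice.

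Of the genes annotated within 500 kb of each member, 5 of 16 around Sall1 and 4 of 14 around Sall3 are in the count table. Nfatc1, a calcium-regulated transcription factor, lies 253918 bp from Sall3 and had the pattern most like it among these neighbours. It was at 233 ± 36.3 CPM ex vivo and, in culture, at 170.2 ± 9.95 (6 h), 57.2 ± 6.17 (24 h), 62.0 ± 13.1 (7 d) and 101 ± 2.66 CPM (7 d with TGFβ). It was called lower at 24 h (log2 -2.03, edgeR adjusted p = 3.70e-08) and 7 d (-1.91, edgeR adjusted p = 5.81e-09). Its call at 6 h (-0.45, edgeR adjusted p = 0.0449) was lost with DESeq2 (adjusted p = 0.100) and when either 6 h library was left out (0.141 and 0.255). Its call with TGFβ against 7 d (0.70, edgeR adjusted p = 0.0125) was lost when either TGFβ library was left out (0.104 and 0.0769). It was also higher ex vivo than in lysate (5.72, edgeR adjusted p = 2.42e-10). Of the other neighbours Snx20 (5.97), Nod2 (4.39), Ctdp1 (1.27) and Atp9b (0.92) were also called higher ex vivo than in lysate. In that comparison 5 of the 7 neighbours tested were called higher and 2 lower, where 39.1% and 43.5% of all genes were. In culture 6 neighbours were tested, of which 4 were called higher and 2 lower at 6 h and 2 and 2 at 24 h. The shares of all genes were 31.2% and 36.8% at 6 h and 29.6% and 33.1% at 24 h. At 7 d 1 was higher, and 1, Nfatc1, was lower, where 34.8% and 35.7% of all genes were. Nkd1, Mir8110 and Gm2176 did not pass the filter on low counts in the microglial model. Ctdp1, a phosphatase of RNA polymerase II, rose at 6 h (1.42) and 24 h (0.65), and Nod2, a sensor of bacterial peptidoglycan near Sall1, rose at 6 h (2.43) and fell with TGFβ against 7 d (-0.97), a call lost when either TGFβ library was left out. Cyld, a deubiquitinase, fell at 6 h (-0.67, not called without 6 h replicate 2) and 24 h (-0.56), and was not called at 7 d.

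The subunits of NuRD, through which SALL proteins repress, were mostly called higher at 6 h, and their calls were mixed later. At 6 h 11 of 14 were called higher and 0 lower, where 31.2% and 36.8% of all genes were (median log2 0.71, against -0.17 over all genes tested), or 7 higher and 2 lower with total counts and with deposited TPM (1 lower without the filter). Chd4, the remodelling helicase, rose from 263 ± 38.0 to 1331 ± 136 CPM (5.07-fold, log2 2.34, edgeR adjusted p = 3.29e-10), and Gatad2a, a scaffold subunit, rose 4.21-fold (2.07). At 24 h 5 were higher and 1 lower, and 8 were not called, where 29.6% and 33.1% of all genes were higher and lower (median 0.16, against -0.06). At 7 d 8 were higher and 3 lower, where 34.8% and 35.7% of all genes were (median 0.48, against -0.02), or 5 lower with deposited TPM. Mbd2, the methyl-DNA-binding subunit, rose 3.45-fold at 7 d (1.79, edgeR adjusted p = 1.27e-10). With TGFβ against 7 d, where 9.57% and 6.52% of all genes were called higher and lower, 2 were higher, Chd3 (0.54) and Chd4 (0.47), and 1 lower, Mbd2 (-0.45). None of these 3 calls held under every alternative: all 3 were lost without TGFβ replicate 1, that of Chd4 also without TGFβ replicate 2 or any of 7 d replicates 1 to 4 and with total counts, and that of Mbd2 also without 7 d replicates 2 and 3 and in the fit of only these 2 groups.

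Of the 21 tested genes of TGFβ signalling, 8 were higher and 5 lower at 6 h, 4 and 11 at 24 h, 5 and 11 at 7 d, each against ex vivo cells (medians 0.42, -0.70 and -0.35, against -0.17, -0.06 and -0.02 over all genes). Of all genes 31.2% and 36.8%, 29.6% and 33.1%, and 34.8% and 35.7% were called higher and lower at these times. With deposited TPM the 5 higher at 7 d became 2 or 3. Tgfbr2, the ligand-binding receptor, fell at 6 h (6.40-fold, log2 -2.68, edgeR adjusted p = 1.36e-09) and was lowest at 24 h (-3.15), but at 7 d it was at 777 CPM against 991 ex vivo (-0.35, edgeR adjusted p = 0.0130). Tgfbr1, its signalling partner, was not called at 6 h (-0.24, edgeR adjusted p = 0.506), was lower at 24 h (-1.58) and was 6.44-fold lower at 7 d (2779 ± 707 to 432 ± 166 CPM, log2 -2.69, edgeR adjusted p = 7.10e-08). The effector Smad3 fell from 276 ± 42.6 ex vivo to 69.6 ± 10.3 CPM at 7 d (log2 -1.99, edgeR adjusted p = 1.11e-09) and correlated with Sall3 at r = 0.949 (rank 32) and with Sall1 at r = 0.866 (rank 591). By Spearman's rho the values were 0.936 (rank 28) for Sall3 and 0.941 (rank 24) for Sall1. Lrrc32, which anchors latent TGFβ at the cell surface, had 0 to 0.222 CPM in the ex vivo libraries and 289 ± 25.3 CPM at 6 h. With TGFβ against 7 d 7 of 21 were higher and 2 lower (median 0.20, against -0.04), and 4 were higher and 1 lower when either TGFβ library was left out. In this comparison 9.57% and 6.52% of all genes were called higher and lower. Among the 21 genes Tgfbr1 rose 3.70-fold (1.89, edgeR adjusted p = 0.000216). Smad7, an inhibitor that the pathway itself induces, rose 2.10-fold (1.07, edgeR adjusted p = 0.00082). Nrros, which anchors latent TGFβ on microglia, fell 2.88-fold (-1.52, edgeR adjusted p = 3.51e-05).

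Homeostatic microglial genes other than the members moved in the same directions. All 11 reported here were higher ex vivo than in lysate, where 39.1% of all genes were. All 11 were lower at 6 h, at 24 h and at 7 d (median log2 -5.22 at 7 d, against -0.02). Of all genes 36.8%, 33.1% and 35.7% were called lower at these times. With TGFβ against 7 d 10 of 11 were higher (median 2.30, against -0.04), where 9.57% of all genes were. Sall1 and Sall3 fell less at 7 d than the median of these 11 genes. With TGFβ Tmem119 rose 47.0-fold, from 16.7 ± 6.61 to 783 ± 5.91 CPM (log2 5.55, edgeR adjusted p = 9.93e-09), and Siglech 43.2-fold (5.43), beside 3.88-fold for Sall1. Of 14 genes of other macrophages and of activated microglia 10 were higher and 1 lower at 7 d, where 34.8% and 35.7% of all genes were. Among the higher were Lpl (8.35) and Clec7a (3.98). The count of lower genes became 0 in a fit of only these 2 groups. It became 2 without 7 d replicates 2 and 3 or without ex vivo replicate 4. Of 13 macrophage transcription factors reported here 1 was higher (Spi1, which encodes PU.1, 0.46) and 6 lower at 7 d, where 34.8% and 35.7% of all genes were. With deposited TPM Spi1 stood at 0.26 and was not called. Of the 6 lower, Irf8, Mef2a and Batf3 did not overlap between the groups, a trait whose share over all genes is not given. The others, Egr1, Fos and Jun, which are immediate early genes, did, with Egr1 at 20.3 to 9251 CPM among the ex vivo libraries and 32.9 to 101 CPM at 7 d.

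The gene body of Sall1 (chr8:89027242-89044162) lay inside the widest H3K27ac domain of its surroundings, and that domain was shorter at 7 d. Ex vivo an interval of 24239 bp (chr8:89024453-89048691) covered the whole gene, the 52nd widest of 24520. At 7 d the widest interval over the gene was 12404 bp (chr8:89034509-89046912, rank 81 of 31349), and a further 1806 bp lay at the 3′ end. H3K27ac intervals were narrower at 7 d over the whole list, with a median width of 1117 bp against 1777 bp ex vivo. The widest interval over Sall1 exceeded 99.8% of intervals ex vivo and 99.7% at 7 d. The 3 ex vivo intervals upstream of the starts, 9.71, 66.6 and 89.1 kb from the gene body, had no overlap in the 7 d list, so 2 of the 5 ex vivo intervals within 100 kb were found at 7 d (40%, exact 95% interval 5.27% to 85.3%), where 67.8% of all ex vivo H3K27ac intervals were. In all, H3K27ac covered 31.2 kb within 100 kb of Sall1 ex vivo and 15.2 kb at 7 d. That difference of -16.0 kb was lower in 5.51% of 21887 genes, and the median difference was -0.614 kb. This difference in kb is not scaled to the starting coverage. Coverage around Sall1 was above that of 88.8% of genes ex vivo and 76.3% at 7 d. The H3K4me2 interval over the gene, 13622 bp, ranked 26 of 43834 by width.

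The same comparison around Sall3 (chr18:80966989-80987021) gave smaller differences. Its widest H3K27ac interval was 9554 bp ex vivo (rank 577) and 5999 bp at 7 d (rank 825), wider than 97.6% and 97.4% of intervals. Of 4 ex vivo intervals 3 were found at 7 d (75%, exact 95% interval 19.4% to 99.4%), and the 1 that was not lay 26.6 kb from the body at higher coordinates. Coverage went from 15.2 to 11.0 kb, a difference of -4.28 kb that was lower in 28.5% of genes. Coverage around Sall3 was above that of 68.3% of genes ex vivo and 65.8% at 7 d. The H3K4me2 interval was 7868 bp (rank 207). Each list was called by the authors on 1 pooled set of tags per condition, so these differences have no replicate check. The pools differed, with 45.6 M H3K27ac tags ex vivo and 27.6 M at 7 d, of which 64.0% and 32.1% fell in peaks, and their part in the interval widths was not tested.

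Around both members most ex vivo ATAC peaks were also in the 7 d list. The ATAC pools differed, with 23.8 M tags ex vivo and 15.2 M at 7 d, of which 25.9% and 37.1% fell in 90674 and 112977 peaks, and the part of this in peaks being listed or not was not tested. Of the 18 ex vivo ATAC peaks within 100 kb of Sall1, 11 were overlapped by a 7 d peak (61.1%, exact 95% interval 35.7% to 82.7%), and of the 18 around Sall3, 13 were (72.2%, 46.5% to 90.3%). Over all ex vivo ATAC peaks the share was 75.0%, inside both intervals. In the other direction 11 of 17 and 13 of 21 7 d peaks were overlapped by an ex vivo peak, where 60.2% of all were. The 7 peaks around Sall1 not found at 7 d included 3 at the gene: the peak at the first start described with the sequences, a peak in the body 12.4 kb downstream of that start that also held a PU.1 peak, and a peak 2.33 kb beyond the 3′ end that overlaps the microRNA gene Mir8110. A peak 11.8 kb upstream of the gene body, with PU.1, H3K4me2 and ex vivo H3K27ac, was found in both ATAC lists but had no H3K27ac interval at 7 d, and so did a peak 66.7 kb upstream. PU.1 peaks overlapped 9 of 18 ex vivo ATAC peaks around Sall1 (50%, exact 95% interval 26.02% to 73.98%) and 8 of 18 around Sall3 (44.4%, 21.5% to 69.2%), where 52.5% of all were.

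The strand and start of Sall3 are not in the tables used here, so its peaks are given by coordinate side. The 5 ex vivo ATAC peaks of Sall3 not found at 7 d included 2 in the gene body and 1 that lay 0.814 kb beyond its high-coordinate end. The peak 0.312 kb beyond that end was in both lists. A group of 4 ex vivo ATAC peaks 59.7 to 61.5 kb beyond that end, under 1 H3K27ac and 1 H3K4me2 interval with 2 PU.1 peaks, kept 3 of its 4 peaks at 7 d, while the H3K27ac interval there went from 2421 to 501 bp. Atp9b, the nearest protein-coding neighbour in the table, ends 32908 bp from Sall3, and the H3K27ac interval there, 32055 bp from Sall3, was 2039 bp ex vivo and 2505 bp at 7 d. Compared with all genes, the number of ex vivo ATAC peaks within 100 kb, 18 for each member, was above that of 61.8% of genes. The ex vivo H3K27ac coverage of Sall1 was above that of 88.8% and that of Sall3 above that of 68.3%.

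**Figure D5:**
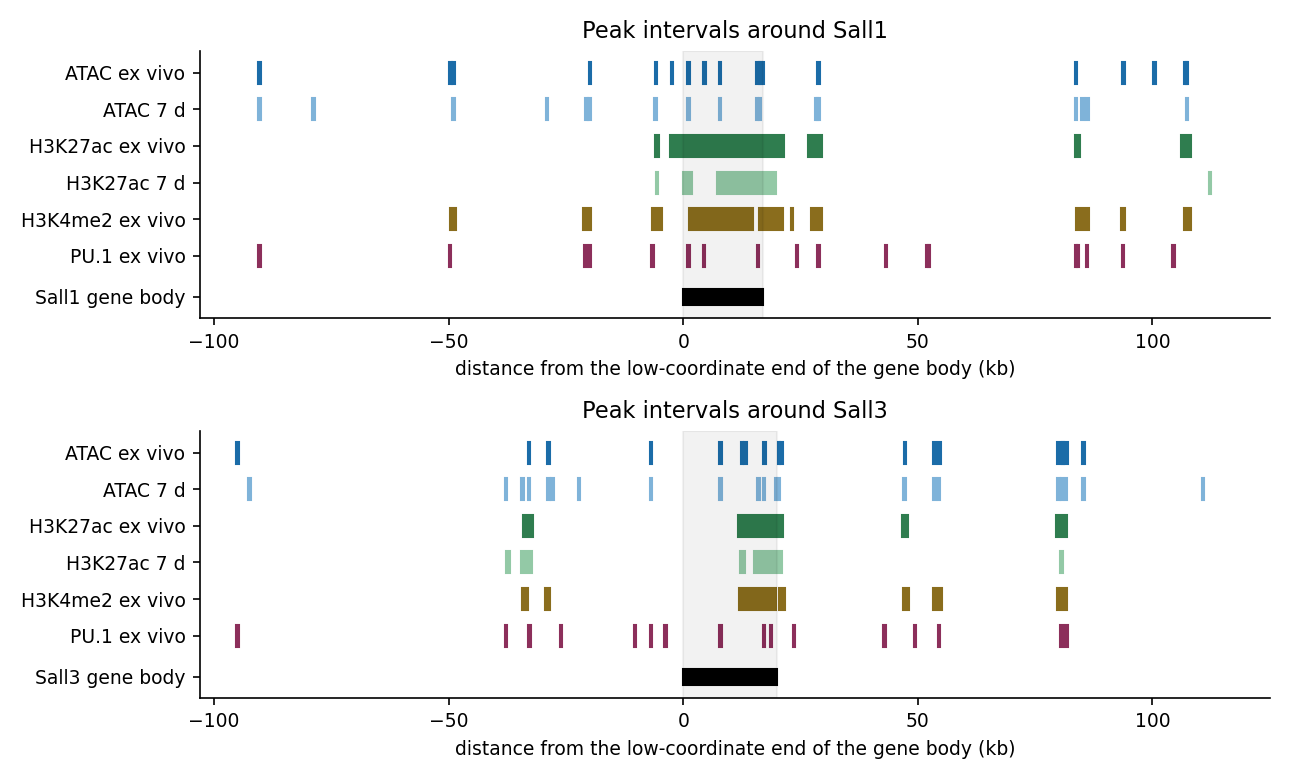
Peak intervals of the 6 deposited lists within 100 kb of Sall1 (top) and Sall3 (bottom), by distance in kb from the low-coordinate end of each gene body (black); narrow peaks are drawn at least 0.55 kb wide to be visible. The H3K27ac interval over Sall1 spans the whole gene ex vivo and is split and shorter at 7 d, and the ex vivo H3K27ac intervals at higher coordinates than the gene have no counterpart at 7 d.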

How the data were processed

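RNA levels were taken from the deposited read counts, whole numbers per gene symbol, and from the deposited TPM values, whose table the authors call trimmed (the listed genes summed to 568934 to 644847 per library). The submitters' processing notes name mm10 and, without roles, HOMER, STAR, R 3.3.1, Bowtie2, limma and bedtools. Per the file headers, peaks were called with HOMER on 1 pooled tag directory per condition, and the deposited lists hold intervals with no scores. What was computed here is as follows. The main test was edgeR's robust quasi-likelihood test (version 4.0.16, R 4.3.3) after filterByExpr and TMM scaling, with Benjamini-Hochberg adjustment over all genes tested, with 1 model of the 17 microglial libraries and 1 of the ex vivo and lysate libraries; CPM uses the TMM-scaled library sizes of that model, except for summed markers, which use total counts. SE is the log2 fold change over the square root of F. Log2 count ratios of Sall1 to Sall3 (0.5 added to each count) were compared by exact permutation. Likeness is Pearson's r of log2 CPM (prior count 2). Intervals sharing 1 bp or more counted as overlapping (bedtools 2.31.1), and shares carry exact (Clopper-Pearson) 95% intervals, which cover counting only. Alternatives were DESeq2 1.42.0, other library sizes, no filter, a replicate block, 2-group fits, each replicate left out, and limma 3.58.1 on log2(TPM + 1) or log2(TPM + 0.1). Per comparison and list, the genes that may be named are the 4 called ones of smallest adjusted p and 2 not called, and not all of these are described. The members and lists were chosen with earlier results of these data known. 2 genes of the lists are not reported here. On simulated data for 7 d against ex vivo (13840 genes), 85 of 100 4-fold and 63 of 100 2-fold changes were recovered, and for TGFβ against 7 d 75 and 39. Only 200 genes were changed in each simulation, whereas in the data 34.8% of genes were called higher and 35.7% lower at 7 d. The recovered shares therefore check the code and do not give the power in these data.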

Additional observations from a re-analysis of the deposited data

Results flagged for a closer look

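Of 114 groups of 4 or more libraries examined over 37 named genes, 4 held a library far from the others, and chance flags about 1 in 20 groups. None was a value of Sall1 or Sall3. In ex vivo replicate 2 the NuRD gene Chd3 was lowest at 60.4 CPM (the others 77.6 to 84.5) and the receptor gene Tgfbr1 highest at 4026 CPM (the others 2280 to 2585). Lrrc32 was at 0.222 CPM in ex vivo replicate 5 and at 0 to 0.0464 CPM in the others. In lysate, Gpnmb was at 4.31 CPM in replicate 3 and at 2.05 to 2.37 CPM in the others.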

How the results depend on the processing

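Sall1 and Sall3 were recomputed under 268 alternative values, of which 258 kept direction and side of the threshold, 2 lost a call, 1 gained one and 7 changed sign. The sign changes all concern 7 d against 24 h, which was not called: with deposited TPM Sall1 stood at -0.0363 with a pseudocount of 1, with or without a filter, and -0.0386 with 0.1, and Sall3 at -0.0887 and -0.0996, while the log2 ratio of Sall1 to Sall3 ranged from -0.0151 to 0.106 over left-out replicates. In fits of only the compared groups Sall1 was called between 24 h and 6 h (-0.60) and Sall3 was not called with TGFβ against 7 d (1.22), where leaving out replicates gave 1.05 to 1.35. Sall2 in ex vivo cells against lysate was -0.24 with DESeq2, -0.24 with RLE factors, -0.27 with total counts and -0.163 to 0.0767 over left-out replicates. The cause was not tested.

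The replicate block put Sall3 at -0.0566 in 7 d against 24 h and changed no other call of either member. Deviations of same-numbered libraries correlated at -0.141 to 0.375, at 0.227 and 0.235 for 24 h with 6 h and 0.113 and 0.375 for TGFβ with 7 d. No comparison with 3 or more pairs had every correlation over 0.1, so the numbers were not taken as pairs, and the block moved the counts of called genes by 0.916 to 1.005 times. Of 1125 values of other named genes 1068 were unchanged in call and direction. Total counts moved the median of all genes by -0.31 (lysate), -0.40 (6 h), -0.15 (TGFβ against ex vivo) and 0.44 (24 h against 6 h), and DESeq2 by -0.50 (lysate) and -0.25 (7 d); the RLE shift was -0.28 (lysate).

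Over all genes, higher calls with TGFβ against ex vivo were 2554 to 2592 with TPM (3920 in the main model), and lower calls 2393 (3801) without TGFβ replicate 2. With TGFβ against 7 d lower calls were 411 and 375 without replicate 1 and 2 and 1391 to 1547 with TPM (902). Between 24 h and 6 h higher calls were 5043 with total counts, 1848 without 6 h replicate 1 and 4579 with TPM and 0.1 (3045), and lower calls 1332, 1767 and 1451 to 1601 with TPM (2734).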
